A study of Mus musculus with 32 samples.

Results

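Imprinted genes are expressed from only 1 parental copy in at least some tissues, and 10 of them that lie outside the H19-Igf2 and Dlk1-Dio3 loci were followed here through reprogramming. They were Peg10, Sgce, Peg3, Mest, Grb10, Cdkn1c, Phlda2, Ndn, Plagl1 and Impact. All 10 were found by symbol among the 24421 gene columns of the count tables, and all 10 passed the filter on low counts in the fit of 13229 genes. The counts came from 32 single-cell 3' RNA libraries, 2 for each of 16 groups. Fibroblasts of mouse embryos (MEFs) were carried toward pluripotency with doxycycline at 2 ug/mL on irradiated feeder MEFs, in embryonic stem cell (ESC) medium with serum and leukemia inhibitory factor. The A2S medium added ascorbic acid, the DOT1L inhibitor SGC0946 and 2i (the GSK3 inhibitor CHIR-99021 and the MEK inhibitor PD-0325901) and was sampled at days 2, 4 and 6. The A2 medium lacked SGC0946, the S2 medium lacked ascorbic acid and the AS medium lacked 2i, each at days 4 and 6. The FBS cultures had serum without small molecules and were sampled at days 3, 6, 9 and 12. The set was completed by V6.5 ESCs with A2S, labelled day 2, by V6.5 ESCs without it and by untreated MEFs. The labels name neither the factors that doxycycline induced nor a mouse strain for the MEFs, and leave it unsaid whether replicates were separate cultures, so the spread between replicates may be technical.

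In genomic imprinting, DNA methylation laid down in the egg or sperm at imprinting control regions keeps the parental copies of a gene unequal after fertilization. Cdkn1c, Phlda2 and, in most mouse tissues, Grb10 are expressed from the maternal copy. Peg10, Sgce, Peg3, Mest, Ndn, Plagl1 and Impact are expressed from the paternal copy. Several of them set the balance of fetal and placental growth, and pluripotent cells in culture can lose or change imprints. The UMI counts carry no allele, so every value below is a total over both copies.

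After the cells on the authors' feeder list were left out, the libraries held 138 to 431 cells and 1727490 to 8848775 UMIs. Levels are UMIs summed over the kept cells of a library and scaled to library size with TMM factors (CPM), and values joined by "and" are those of replicates A and B. In these sums, fewer expressing cells and less RNA per cell cannot be told apart. The summed level of 16 pluripotency markers was 7237 to 7244 CPM in ESCs with A2S, 6243 to 6426 in ESCs, 1578 to 1669 in A2S day 6 and 0.994 to 2.59 in MEFs, where 10 of the 16 were at 0. The summed level of 16 fibroblast markers was 689 to 756 CPM in ESCs with A2S, 351 to 363 in ESCs, 1614 to 1874 in A2S day 6 and 17836 to 19271 in MEFs. AS day 4 B stood apart from AS day 4 A in 12 interferon-response genes, at 1225 CPM against 45.3 CPM. A2S day 2 (1117 to 1191) and FBS day 3 (1091 to 1193) were also high in these genes.

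Genomic positions are those of the GENCODE annotation of GRCm38 (mm10). Peg10 (chr6:4747306-4760517, plus strand) and Sgce (chr6:4674350-4747207, minus strand) start 99 bases apart on opposite strands. Cdkn1c (chr7:143458339-143461050) and Phlda2 (chr7:143501545-143503150), both on the minus strand, have starts 42100 bases apart. The others lie apart, with Plagl1 at chr10:13060504-13131694 (plus), Grb10 at chr11:11930508-12038683 (minus), Ndn at chr7:62346569-62350262 (plus) and Peg3 at chr7:6703892-6730431 (minus), while Impact lies on a chromosome of its own among the 10. Mest (chr6:30723547-30748465, plus) overlaps Copg2 on the other strand, and since the strand setting of the counting is not given, its values are uncertain to that extent. RefSeq promoter windows of GRCm38.p6, from 250 bases before to 50 bases after a start, matched 6 of the 10 genes. The windows of the genes whose levels moved most in ESCs with A2S are shown, 5′ to 3′ on the gene's strand, with matches to TGCCGC or its reverse complement GCGGCA in capitals.
Plagl1, chr10:13090582-13090881 (plus strand): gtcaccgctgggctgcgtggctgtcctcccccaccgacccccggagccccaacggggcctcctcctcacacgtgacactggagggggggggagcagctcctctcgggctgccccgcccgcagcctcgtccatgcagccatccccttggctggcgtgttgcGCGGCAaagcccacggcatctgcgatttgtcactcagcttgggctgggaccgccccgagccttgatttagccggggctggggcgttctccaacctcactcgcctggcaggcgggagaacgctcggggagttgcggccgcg
Grb10, chr11:12037371-12037670 (minus strand): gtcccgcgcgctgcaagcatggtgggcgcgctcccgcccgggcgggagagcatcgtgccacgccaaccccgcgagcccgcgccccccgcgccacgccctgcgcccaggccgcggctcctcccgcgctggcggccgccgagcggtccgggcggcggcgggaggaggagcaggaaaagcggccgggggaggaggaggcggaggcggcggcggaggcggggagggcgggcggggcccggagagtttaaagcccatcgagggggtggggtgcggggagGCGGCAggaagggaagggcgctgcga
Phlda2, chr7:143502475-143502774 (minus strand): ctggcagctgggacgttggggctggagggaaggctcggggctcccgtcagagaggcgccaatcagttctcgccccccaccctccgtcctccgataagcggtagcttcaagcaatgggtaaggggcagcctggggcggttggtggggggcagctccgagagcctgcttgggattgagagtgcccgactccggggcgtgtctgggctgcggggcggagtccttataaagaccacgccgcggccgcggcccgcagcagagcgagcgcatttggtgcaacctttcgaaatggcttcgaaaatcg
TGCCGC is the core of the sequence bound, when methylated, by Zfp57, a zinc-finger protein that helps to keep imprints. It was searched on both strands, and 11.6% of the 32851 promoter windows in the table held it. The Plagl1 and Grb10 windows shown had 1 match each and the Phlda2 window had none. Among windows not shown, those of Mest at chr6:30737800-30738099 and chr6:30737803-30738102, which overlap, had 2 matches each. The Mest window at chr6:30733256-30733555 and those of Peg3 and Ndn had none. Mest gave no call in ESCs with A2S over ESCs. The background share was not matched for CpG number, and a link of these matches to Zfp57 or to levels was not tested. CpG dinucleotides numbered 26 in the Plagl1 window, 45 in the Grb10 window shown and 26 in the Phlda2 window, against a median of 7 over all windows. The table held 1 more Grb10 window, at chr11:12027922-12028221 (minus strand), with no match and 9 CpG dinucleotides. Zfp57 itself was at 9.87 ± 0.708 CPM in ESCs with A2S and 3.14 ± 0.290 CPM in ESCs (SD, n = 2 each).

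The 10 genes differed in how far their levels spread over the 16 groups, from 2.35-fold between the highest and lowest group mean for Impact to 55.8-fold for Grb10 and no detected UMI to 207 CPM for Phlda2. Phlda2, which encodes a pleckstrin-homology protein that restrains placental growth, had more than 9 UMIs in 4 of the 16 groups. It was at 12.0 and 12.1 CPM in ESCs with A2S, 20.6 and 17.0 in A2S day 6 and 199.7 and 215 in ESCs, and these 3 groups did not overlap with each other or with any other group. S2 day 6 followed at 1.59 and 6.28 CPM, each of the other 12 groups had 9 UMIs or fewer in all, and A2 day 4, FBS day 6 and FBS day 9 had none. Peg10, a retrotransposon-derived gene with a Gag-like protein that the mouse placenta needs, was highest in A2S day 4 (211 and 236 CPM) and A2S day 6 (269.5 and 226). Those groups overlapped with each other and with no other group, and S2 day 6 came next at 109 and 98.9 CPM. The 4 FBS days, MEFs and ESCs with A2S held the lowest 6 places for Peg10, between 4.83 and 22.3 CPM in single libraries.

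Grb10, an adaptor that inhibits insulin and IGF1 receptor signalling, was at 565 CPM or more in every library of fibroblast origin. It was highest in A2 day 4 (1259 and 1341 CPM), and the 2 ESC groups lay apart from all others and from each other, with 28.7 and 17.9 CPM in ESCs with A2S and 361 and 379 CPM in ESCs. Plagl1 (Zac1), a zinc-finger transcription factor that restrains proliferation, was highest in S2 day 4 (309.6 and 244 CPM), which overlapped with A2 day 6. ESCs were lowest for Plagl1 at 6.27 and 4.03 CPM, below every other library. Ndn, which encodes the MAGE-family protein necdin, was highest in MEFs (262 and 251 CPM), apart from all other groups. At the low end of Ndn, A2S day 6, ESCs with A2S and ESCs overlapped with their neighbours at 21.2 to 33.2 CPM.

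Cdkn1c, which encodes the cyclin-dependent kinase inhibitor p57, was highest in FBS day 6 (213 and 105 CPM) and FBS day 9 (179 and 129 CPM), which overlapped. Peg3, a zinc-finger protein gene, was highest in A2S day 6 (40.5 and 34.4 CPM), above every other library. Sgce, which encodes epsilon-sarcoglycan of the dystrophin-associated complex, was lowest in the 2 ESC groups (5.51 to 7.37 CPM) and ranged from 11.5 to 43.5 CPM elsewhere. Mest, which encodes a protein of the alpha/beta-hydrolase fold, was highest in ESCs (209 and 204 CPM) and its replicates lay far apart in FBS day 9, at 200.1 and 84.9 CPM. Impact, which encodes an inhibitor of activation of the kinase Gcn2, was lowest in ESCs with A2S (91.2 and 87.6 CPM) and lay between 126 and 224 CPM in all other libraries. Of the 15 pairs of neighbouring groups in each gene's order, libraries overlapped in 7 (Grb10) to 13 (Sgce and Peg3).

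**Figure D1:**
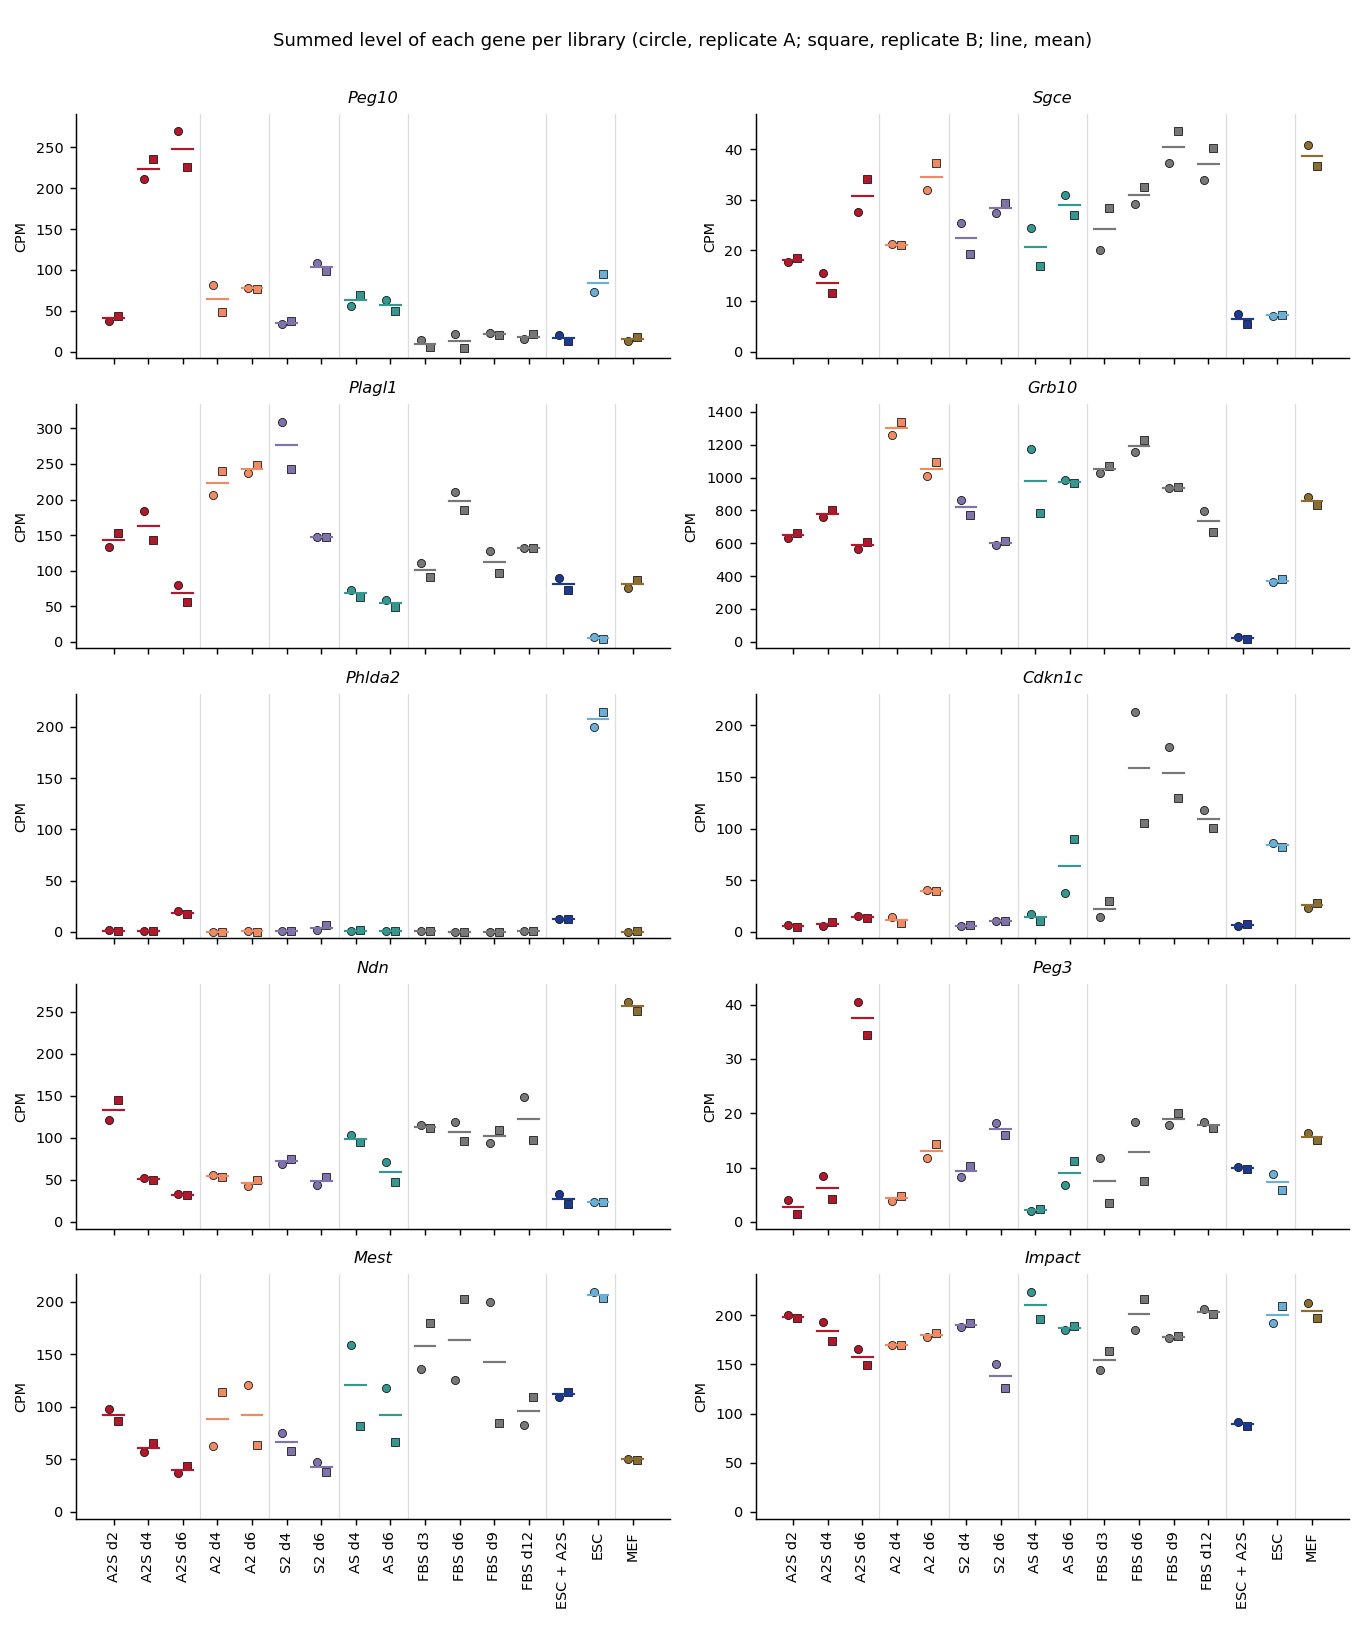
Level of each of the 10 genes in every library (CPM on the vertical axis, groups by medium and day on the horizontal axis). Circles are replicate A, squares replicate B and lines the group mean. Phlda2 is high in ESCs, Peg10 in A2S days 4 and 6, and Grb10 is lowest in ESCs with A2S.

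ESCs differed from MEFs in 9 of the 10 genes, with 4 higher (Phlda2, Peg10, Mest and Cdkn1c) and 5 lower (Plagl1, Ndn, Sgce, Grb10 and Peg3). Over all genes tested, 71.6% were called in this comparison, so most genes differed between these cell types. A call is a Benjamini-Hochberg adjusted p under 0.05 in edgeR's quasi-likelihood test, and a gene's value in parentheses is its log2 fold change ± SE, with n = 2 libraries in each group. In every such call between 2 groups, the libraries of the groups did not overlap. Call and lack of overlap rest on the same 2 libraries a group, so the second is no separate support. Phlda2 was at 199.7 and 215 CPM in ESCs, against 0.166 and 0.388 CPM in MEFs (9.30 ± 0.36, adjusted p = 1.23e-23). Without MEF B the value was 9.97. Plagl1 was at 6.27 and 4.03 CPM in ESCs, against 75.6 and 86.6 CPM in MEFs (-3.99 ± 0.27, adjusted p = 9.2e-14). Ndn showed the same direction, with 24.2 and 23.1 CPM in ESCs and 262 and 251 CPM in MEFs (-3.44 ± 0.19, adjusted p = 1.93e-16). The other lower genes were Sgce (-2.41 ± 0.24), Grb10 (-1.21 ± 0.13) and Peg3 (-1.11 ± 0.38). The Peg3 call was lost without ESC B, at -0.87. Peg10 (2.44 ± 0.34), Mest (2.05 ± 0.40) and Cdkn1c (1.68 ± 0.37) were higher in ESCs. Impact gave no call (-0.03 ± 0.10, adjusted p = 0.833). Peg10 and Sgce, whose starts are 99 bases apart, moved in opposite directions.

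With A2S, reprogramming cells changed these genes in steps that differed from gene to gene. By day 2, 7 of the 10 differed from MEFs, with Peg10 and Plagl1 higher and Grb10, Sgce, Peg3, Ndn and Cdkn1c lower (background 49.7% of genes called). Plagl1 was at 133 and 153 CPM at day 2, against 75.6 and 86.6 CPM in MEFs (0.82 ± 0.15, adjusted p = 3.54e-05). The lower genes were Peg3 (-2.57 ± 0.41), Cdkn1c (-2.12 ± 0.53), Sgce (-1.09 ± 0.18), Ndn (-0.95 ± 0.15) and Grb10 (-0.40 ± 0.12). The Peg3 value was -3.54 without A2S day 2 A. Peg10 (1.40 ± 0.35) lost its call without MEF A, at 1.10, and Phlda2 gained one without A2S day 2 B, at 2.27. Mest was at 97.5 and 86.4 CPM at day 2, against 50.6 and 49.3 CPM in MEFs, without overlap and without a call (0.88 ± 0.41, adjusted p = 0.0872), and was called in a fit of these 2 groups alone (0.87).

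Between days 2 and 4 with A2S, Peg10 and Peg3 rose and Ndn fell (background 29.5%). Peg10 was at 211 and 236 CPM at day 4, against 38.0 and 43.6 CPM at day 2 (2.44 ± 0.30, adjusted p = 7.41e-06). Ndn was at 51.7 and 50.3 CPM at day 4, against 121 and 145 CPM at day 2 (-1.38 ± 0.17, adjusted p = 2.75e-07). Both genes separated the days by more than the spread between replicates. The Peg3 call (1.37 ± 0.52) was lost under DESeq2 (1.35), without A2S day 2 B (0.77) and without A2S day 4 A (0.70), and the value was 2.30 without A2S day 2 A.

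Between days 4 and 6 with A2S, Phlda2, Peg3 and Sgce rose and Plagl1, Grb10 and Ndn fell, while Peg10 gave no call (background 24.4%). Phlda2 was at 20.6 and 17.0 CPM (120 UMIs) at day 6, against 0.817 and 1.05 CPM at day 4 (4.33 ± 0.47, adjusted p = 6.98e-09). Peg3 was at 40.5 and 34.4 CPM at day 6, against 8.44 and 4.19 CPM at day 4 (2.45 ± 0.36, adjusted p = 5.21e-06), and the value was 3.17 without A2S day 4 A. Plagl1 was at 80.1 and 55.9 CPM at day 6, against 183 and 143 CPM at day 4 (-1.28 ± 0.16, adjusted p = 1.04e-06). In each of these genes both day 6 libraries lay on 1 side of both day 4 libraries. Sgce rose (1.14 ± 0.22), and the difference of Peg10 was 0.16 ± 0.26 (adjusted p = 0.717). The Grb10 (-0.41 ± 0.13) and Ndn (-0.65 ± 0.21) calls were each lost without any 1 of the 4 libraries. Without A2S day 4 A, A2S day 4 B, A2S day 6 A and A2S day 6 B in turn, Grb10 was at -0.43, -0.34, -0.33 and -0.44, and Ndn at -0.61, -0.64, -0.66 and -0.60.

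Set against both ends of reprogramming, A2S day 6 cells lay between MEFs and ESCs in some genes and outside both in others. Peg10 was higher in A2S day 6 than in MEFs (4.00 ± 0.32) and than in ESCs (1.56 ± 0.29), and so was Peg3 (1.26 ± 0.28 against MEFs and 2.36 ± 0.36 against ESCs). Impact was lower than in both (-0.38 ± 0.10 against MEFs and -0.35 ± 0.10 against ESCs). Phlda2 lay between them, above MEFs (5.84 ± 0.45, 6.52 without MEF B) and below ESCs (-3.46 ± 0.22), as did Grb10 from the other side (-0.54 ± 0.12 against MEFs and 0.66 ± 0.13 against ESCs). Plagl1 and Sgce were higher than in ESCs (3.73 ± 0.29 and 2.09 ± 0.25) with no call against MEFs (-0.25 ± 0.16 and -0.33 ± 0.17), and Plagl1 gained one without A2S day 6 A (-0.56). Mest and Cdkn1c were lower than in ESCs (-2.36 ± 0.45 and -2.55 ± 0.45) with no call against MEFs (-0.31 ± 0.46 and -0.86 ± 0.47). Ndn was lower than in MEFs (-2.98 ± 0.18) with no call against ESCs (0.46 ± 0.24). That gave 6 calls against MEFs (background 66%) and 9 against ESCs (background 54.4%), and the 2 comparisons share the A2S day 6 libraries. The Impact call against ESCs was lost without A2S day 6 B (-0.27) and without ESC B (-0.27).

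In serum without small molecules, Mest rose by day 3 and Cdkn1c between days 3 and 6. At day 3, Mest was higher than in MEFs and Impact, Sgce, Peg3 and Ndn were lower (background 40.6%). Mest was at 136 and 179 CPM at day 3, against 50.6 and 49.3 CPM in MEFs (1.66 ± 0.40, adjusted p = 0.00306). Ndn was at 115 and 111 CPM at day 3, against 262 and 251 CPM in MEFs (-1.18 ± 0.15, adjusted p = 1.35e-07). Both FBS day 3 libraries lay beyond both MEF libraries in these 2 genes. Impact (-0.41 ± 0.10) and Sgce (-0.68 ± 0.18) changed less, and the Sgce call was lost without FBS day 3 A (-0.48) and with the listed cells kept (-0.33). The Peg3 value (-1.02 ± 0.35) rested on FBS day 3 B, with -0.45 and no call without it, -2.21 without FBS day 3 A, and -0.998 and no call without MEF A.

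Between days 3 and 6 in serum, Cdkn1c, Plagl1 and Impact rose and none of the 10 fell (background 37.6%). Cdkn1c was at 213 and 105 CPM at day 6, against 14.0 and 29.4 CPM at day 3 (2.91 ± 0.40, adjusted p = 1.64e-05). The value was 3.52 without FBS day 3 B and 2.28 without FBS day 6 A, and the call was lost in a fit of these 2 groups alone (2.93). Plagl1 was at 211 and 186 CPM at day 6, against 110.3 and 91.0 CPM at day 3 (0.98 ± 0.16, adjusted p = 9.53e-06). With the listed cells kept, this value was 0.34 with no call, and that of day 3 against MEFs was 0.98 with a call, in place of 0.31 ± 0.16. The listed cells made up 35.8% and 26.9% of barcodes in FBS day 3. Impact (0.38 ± 0.10) lost its call without FBS day 3 A (0.29) and without FBS day 6 B (0.26). Peg3 gained one without FBS day 3 A (1.98) and without FBS day 6 B (1.24), against 0.82 ± 0.39 with all libraries.

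After day 6 little moved in serum. Plagl1 fell between days 6 and 9, to 127 and 97.3 CPM at day 9, against 211 and 186 CPM at day 6 (-0.83 ± 0.16, adjusted p = 0.00107), as the 1 call of the 10 (background 9.53%). Between days 9 and 12 edgeR called 0 of the 10 (background 12.4%), with 2 at an unadjusted p under 0.05 and 0 by DESeq2. Without FBS day 12 A, Grb10 was called lower at day 12 than at day 9 (-0.49) and than in MEFs (-0.41). At day 12, Cdkn1c (2.06 ± 0.38) and Plagl1 (0.70 ± 0.16) were above MEFs and Ndn (-1.07 ± 0.16) below, with 3 of the 10 called (background 54.2%). Against ESCs, FBS day 12 was higher in Plagl1 (4.69 ± 0.27), Sgce (2.36 ± 0.26), Ndn (2.36 ± 0.21), Peg3 (1.30 ± 0.42) and Grb10 (0.99 ± 0.13). It was lower in Phlda2 (-7.53 ± 0.38), Peg10 (-2.18 ± 0.42) and Mest (-1.10 ± 0.43), which made 8 calls (background 66.2%). The Mest call was lost without any 1 of the 4 libraries, at -0.93 when FBS day 12 A was left out, -1.35 for FBS day 12 B, -1.10 for ESC A and -1.14 for ESC B. The Peg3 call was lost without ESC B (0.99).

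The media that lack 1 part of A2S ask what leaving out that part does to each gene. The 6 comparisons share the A2S libraries of a day, so their values are given side by side and not as repeats. Peg10 was higher in A2S than in each of the other media on both days, and at day 6 Peg3 and Phlda2 were as well. At day 4, Peg10 was at 211 and 236 CPM in A2S, 81.2 and 48.4 in A2, 33.7 and 37.5 in S2 and 55.4 and 69.7 in AS. The fold changes were 1.73 ± 0.29 over A2 (adjusted p = 0.000512), 2.65 ± 0.33 over S2 (adjusted p = 6.79e-05) and 1.80 ± 0.30 over AS (adjusted p = 0.000168). Both A2S libraries lay above all 6 of the others. At day 6 they were 1.67 ± 0.28 over A2 (adjusted p = 0.000204), 1.25 ± 0.28 over S2 (adjusted p = 0.00484) and 2.12 ± 0.29 over AS (adjusted p = 1.77e-05).

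Plagl1 lay on different sides of A2S by the part left out. At day 4 it was at 183 and 143 CPM in A2S, 206 and 240.5 in A2, 309.6 and 244 in S2 and 73.2 and 63.1 in AS. A2S lay above AS (1.30 ± 0.17, adjusted p = 5.61e-07) and below S2 (-0.75 ± 0.15, adjusted p = 0.00189), and the S2 call was lost without S2 day 4 A (-0.55). Against A2 the value was -0.42 ± 0.15 (adjusted p = 0.0561), with a call without A2S day 4 A (-0.63). At day 6 Plagl1 was at 80.1 and 55.9 CPM in A2S, 237 and 248 in A2, 147 and 148 in S2 and 58.4 and 49.3 in AS. A2S was then below A2 (-1.83 ± 0.16, adjusted p = 3.46e-10) and below S2 (-1.11 ± 0.17, adjusted p = 1.96e-05). It overlapped with AS (0.33 ± 0.18, adjusted p = 0.146), with a call without A2S day 6 B (0.59).

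The changes from day 4 to day 6 in A2S and in another medium were set against each other in the same fit. The change of Plagl1 was lower in A2S than in A2 (log2 difference -1.41 ± 0.22, adjusted p = 0.000126, 1 of the 10 called, background 7.71%). It was also lower than in AS (-0.97 ± 0.25, adjusted p = 0.00919), and the change of Phlda2 was higher than in AS (4.61 ± 1.05, adjusted p = 0.00263), which made 2 of the 10 (background 10.7%). With the listed cells kept the Phlda2 difference was 5.34. Against S2, edgeR called 0 of the 10 (background 3.39%), with 3 at an unadjusted p under 0.05 and 0 by DESeq2.

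Phlda2 was near the limit of detection in all 4 media at day 4. A2S held 5 UMIs, against none in A2, and the ratio of A2S to S2 was 1.58 with a 95% counting interval of 0.308 to 10.2. At day 6 it was at 20.6 and 17.0 CPM in A2S, 0.654 and 0 in A2, 1.59 and 6.28 in S2 and 0.781 and 1.01 in AS. The libraries with all 3 additions were above the 6 others. The ratio of A2S to A2, where replicate A held 2 UMIs and replicate B none, was 63.5 with a 95% counting interval of 17.2 to 530.4. Against AS the fold change was 4.36 ± 0.44 (adjusted p = 3.79e-10) and against S2 2.33 ± 0.35 (adjusted p = 7.54e-06). The S2 value was 1.59 without S2 day 6 A and 3.55 without S2 day 6 B. Peg3 at day 6 was at 40.5 and 34.4 CPM in A2S, 11.8 and 14.4 in A2, 18.1 and 16.1 in S2 and 6.77 and 11.1 in AS. Its fold changes were 1.51 ± 0.31 over A2, 1.12 ± 0.31 over S2 and 2.09 ± 0.33 over AS. The S2 call was lost without A2S day 6 A (1.02), S2 day 6 A (1.23) or S2 day 6 B (1.06). At day 4 Peg3 was called over AS (1.55 ± 0.56), a call lost without A2S day 4 A (0.84), AS day 4 A (1.45) or AS day 4 B (1.74), with the listed cells kept (1.28) and in a fit of the 2 groups alone (1.51).

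The growth-restraining genes Grb10 and Cdkn1c were lower in A2S than in some of the media. At day 4 Grb10 was at 760.5 and 800.4 CPM in A2S and 1259 and 1341 in A2 (-0.74 ± 0.12, adjusted p = 6.72e-05). At day 6 Grb10 was at 565 and 608 CPM in A2S, 1009.6 and 1092 in A2, 588 and 612 in S2 and 982 and 965 in AS. A2S overlapped with S2 (-0.03 ± 0.13, adjusted p = 0.904) and lay below A2 (-0.84 ± 0.12, adjusted p = 3.16e-06) and AS (-0.73 ± 0.12, adjusted p = 1.86e-05). Cdkn1c at day 6 was at 15.3 and 13.2 CPM in A2S, 40.2 and 39.1 in A2, 10.8 and 10.2 in S2 and 37.5 and 89.8 in AS. It was lower in A2S than in A2 (-1.47 ± 0.48) and AS (-2.12 ± 0.46). The A2 call was lost without any 1 of the 4 libraries, at -1.57 and -1.35 without A2S day 6 A and B and -1.43 and -1.47 without A2 day 6 A and B. The AS value was -1.37 without AS day 6 B, with no call in a fit of the 2 groups alone (-2.11).

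Ndn was lower in A2S than in AS at day 4 (-0.94 ± 0.18) and at day 6 (-0.88 ± 0.20, no call without AS day 6 A at -0.51). Mest was lower in A2S than in AS at day 6 (-1.21 ± 0.46). That call was lost with the replicate letter as a block (-1.20), with no count filter (-1.24), with the listed cells kept (-1.26), in cells of 2000 UMIs or more (-1.21), and without A2S day 6 A (-1.08), A2S day 6 B (-1.30) or AS day 6 A (-0.71). Against A2 at day 6 Mest was called under DESeq2 (-1.16) and without A2 day 6 B (-1.57, with -1.18 ± 0.47 from all libraries). Without AS day 4 B, the library high in interferon-response genes, Grb10 (-0.59) and Sgce (-0.80) were called lower in A2S than in AS at day 4, where all libraries gave -0.32 ± 0.12 and -0.50 ± 0.24. With all libraries, Grb10 was also called there under DESeq2, with RLE factors and with no count filter, each at -0.34. Impact gave no call against any of the 3 media on either day. In all, the 10 genes had 2 calls against A2 (background 14.4%), 2 against S2 (6.36%) and 4 against AS (29.9%) at day 4, and 6 against A2 (30.4%), 4 against S2 (16.1%) and 7 against AS (38.5%) at day 6.

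**Figure D2:**
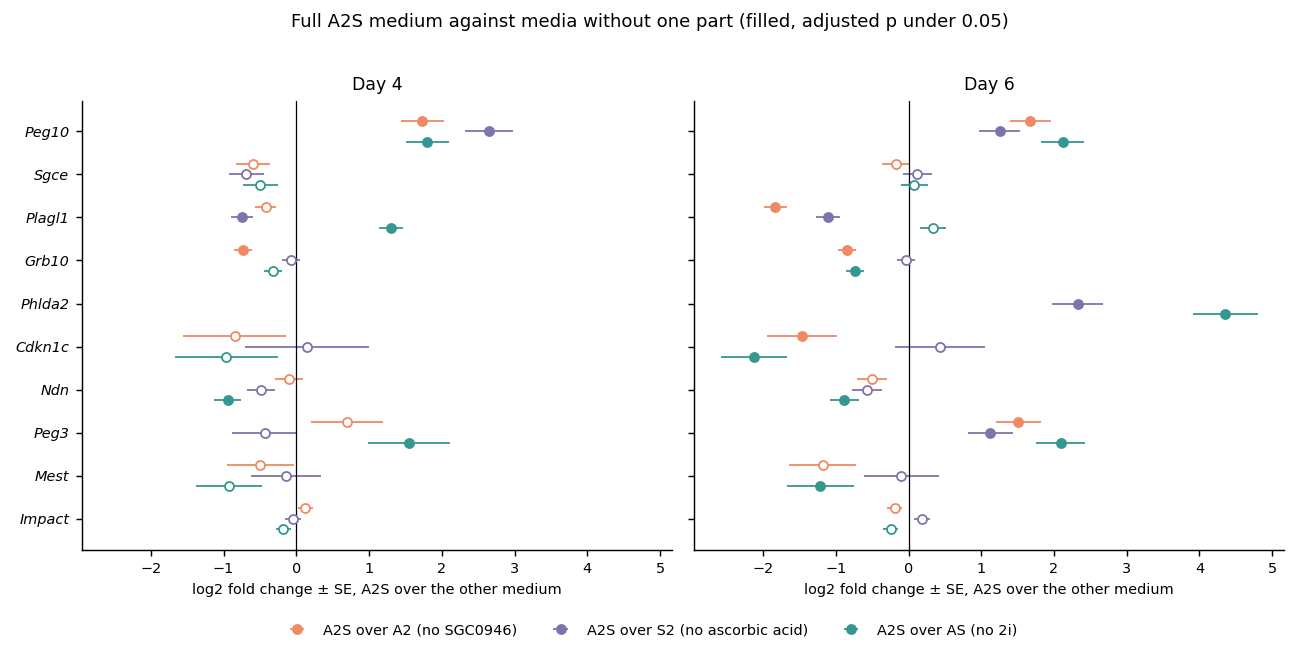
Log2 fold change of each gene in A2S over A2, S2 and AS at days 4 and 6, with bars of 1 SE and filled points where the edgeR adjusted p was under 0.05. Peg10 is above 0 in all 6 comparisons, Plagl1 is above 0 against AS and below 0 against A2 and S2, and Phlda2 is left out where it had too few UMIs.

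The whole A2S mixture against serum alone, both at day 6 with doxycycline, gave 9 calls among the 10 genes, with Peg10, Peg3 and Phlda2 higher and the rest lower except Sgce (background 52.5%). Peg10 was at 269.5 and 226 CPM in A2S, against 22.0 and 4.83 CPM in FBS (4.05 ± 0.36, adjusted p = 4.22e-08). Phlda2 had 120 UMIs over the A2S libraries and none over the FBS libraries, so it was at least 36.8-fold higher in A2S, set against 3 UMIs over the group. Cdkn1c was at 15.3 and 13.2 CPM in A2S, against 213 and 105 CPM in FBS (-3.50 ± 0.42, adjusted p = 2.18e-06). The media did not overlap in these 3 genes, and FBS day 6 A and B differed from each other in Peg10 and Cdkn1c. Without FBS day 6 A the values were 5.69 for Peg10, -2.85 for Cdkn1c and 2.34 for Peg3 (1.45 ± 0.32 with it). Mest (-2.00 ± 0.45), Ndn (-1.74 ± 0.19), Plagl1 (-1.54 ± 0.16), Grb10 (-1.02 ± 0.13) and Impact (-0.35 ± 0.10) were lower in A2S, and Sgce was at 0.01 ± 0.19. The Impact call was lost without A2S day 6 B (-0.25) and without FBS day 6 B (-0.21).

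In ESCs, the mixture went with other changes. Against ESCs without it, ESCs with A2S were higher in Plagl1 and lower in Grb10, Phlda2, Cdkn1c, Peg10 and Impact, 6 calls of 10 (background 46.6%). Grb10 was at 28.7 and 17.9 CPM in ESCs with A2S, against 361 and 379 CPM in ESCs (-3.99 ± 0.16, adjusted p = 2.53e-19). Plagl1 was at 89.0 and 73.0 CPM in ESCs with A2S, against 6.27 and 4.03 CPM in ESCs (3.99 ± 0.28, adjusted p = 1e-12). Phlda2 was at 12.0 and 12.1 CPM in ESCs with A2S, against 199.7 and 215 CPM in ESCs (-4.10 ± 0.23, adjusted p = 3.57e-17). In all 3 genes the 2 groups lay further apart than the replicates of either group. Cdkn1c was at 6.00 and 7.99 CPM in ESCs with A2S, against 85.6 and 81.7 CPM in ESCs (-3.57 ± 0.50, adjusted p = 1.32e-05). Peg10 (-2.33 ± 0.37, adjusted p = 5.88e-05) and Impact (-1.17 ± 0.11, adjusted p = 6.86e-12) were lower too. Mest (-0.88 ± 0.39), Peg3 (0.45 ± 0.42), Ndn (0.19 ± 0.24) and Sgce (-0.16 ± 0.32) gave no call. Leaving out any 1 of the 4 libraries ended none of the 6 calls. Of the 5 lower genes, Grb10, Phlda2 and Cdkn1c are maternally and Peg10 and Impact paternally expressed.

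Fibroblast markers were also higher in ESCs with A2S than in ESCs, and the part of feeder RNA in the Plagl1 result was not tested. In the 98 listed feeder cells of those libraries, Plagl1 was at 328 CPM with a 95% counting interval of 295 to 363. In the kept cells 591 Plagl1 UMIs stood beside 171 of the collagen gene Col1a1, a ratio of 3.46, and in the listed cells 368 stood beside 4270, a ratio of 0.0862. With the listed cells kept, Plagl1 was at 4.41 and Grb10 at -2.97 on the log2 scale.

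**Figure D3:**
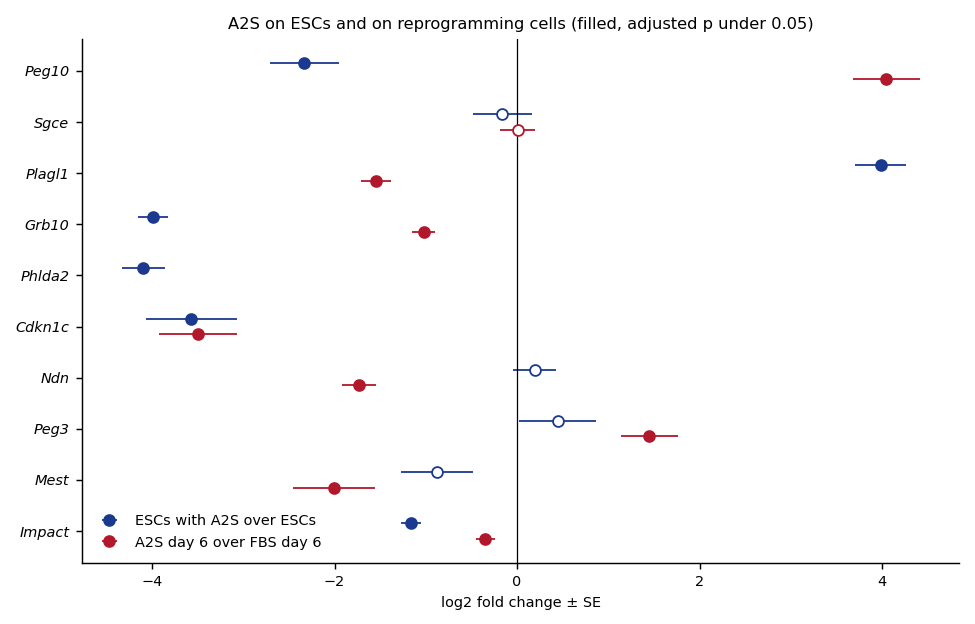
Log2 fold change of each gene in ESCs with A2S over ESCs and in A2S day 6 over FBS day 6, with bars of 1 SE and filled points where the edgeR adjusted p was under 0.05. Plagl1 and Peg10 lie on opposite sides of 0 in the 2 comparisons, and Phlda2 is left out of the second, where FBS day 6 had no UMI.

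The effects of A2S in ESCs and in reprogramming cells were then compared in 1 fit, as a contrast added after the values were seen. They differed in 6 of the 10 genes (background 48.6%). Plagl1 differed by 5.53 ± 0.32 (higher with A2S in ESCs, lower in reprogramming) and Peg10 by -6.38 ± 0.52 (lower in ESCs, higher in reprogramming). Grb10 (-2.96 ± 0.21) and Impact (-0.82 ± 0.15) were lower with A2S in both settings and more so in ESCs, and Grb10 differed by -2.03 with the listed cells kept. Ndn (1.93 ± 0.30) fell in reprogramming and gave no call in ESCs. Phlda2 was called as well, being lower with A2S in ESCs and at least 36.8-fold higher in reprogramming. Cdkn1c (-0.07 ± 0.70) was lower in both, and its difference gave no call. The labels give day 2 for the ESCs and day 6 for the reprogramming cells, which also had doxycycline, and these cannot be told apart from the cell type here.

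Within a library, cells with at least 1 UMI of Nanog, a core pluripotency factor, were summed and compared with cells without one, with the library as a block. Nanog-zero cells can include cells whose Nanog RNA was missed. Of 5 groups with enough Nanog-positive cells, Grb10 was lower in Nanog-positive cells in 4, and Plagl1 and Ndn in 4 each. Fibroblast markers moved with this split, and their part in the results was not tested. The summed level of the 16 markers was 699 and 739 CPM in the Nanog-positive cells of A2S day 6, against 3219 and 2871 CPM in its Nanog-zero cells. It was 611 and 634 CPM in positive cells, against 3116 and 2464 CPM in Nanog-zero cells, of S2 day 6. For AS day 6 it was 1338 and 2498 CPM in positive cells, against 6497 and 6966 CPM in Nanog-zero cells. For FBS day 12 it was 2572 and 2672 CPM in positive cells, against 12494 and 10553 CPM in Nanog-zero cells. For A2S day 4 it was 910 and 625 CPM in positive cells, against 2298 and 2581 CPM in Nanog-zero cells. The markers lower in the positive cells of both libraries numbered 16 of 16 in A2S day 6, S2 day 6 and FBS day 12, 15 in AS day 6 and 12 in A2S day 4, and 2 to 7 of the 16 had no UMI in the positive cells of a library.

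In A2S day 6, 112 and 126 cells were Nanog-positive, and 118 and 132 had no Nanog UMI. Phlda2 was at 37.3 and 33.9 CPM in Nanog-positive cells, against 8.21 and 0.738 CPM in Nanog-zero cells (3.00 ± 0.60, edgeR adjusted p = 5.16e-05). Both positive sums lay above both Nanog-zero sums, and the value was 5.35 without A2S day 6 A and 2.16, with no call, without A2S day 6 B. Grb10 was at 425 and 493 CPM in Nanog-positive cells, against 775 and 838 CPM in Nanog-zero cells (-0.82 ± 0.09, edgeR adjusted p = 8.11e-11). Ndn (-1.24 ± 0.26), Sgce (-1.15 ± 0.28) and Plagl1 (-1.04 ± 0.19) were lower too, and without A2S day 6 B the Ndn (-0.94) and Sgce (-1.10) calls were lost. Peg10 was at 163 and 159 CPM in Nanog-positive cells, against 406 and 340.2 CPM in Nanog-zero cells, with no overlap and no call (-1.21 ± 0.36, edgeR adjusted p = 0.054). It was called with RLE factors (-1.25), no count filter (-1.21), 2 Nanog UMIs or more (-1.47) and cells of 5000 UMIs or more (-1.21). That made 5 calls of 10 (background 31.7%). Peg3 was at 44.3 and 46.2 CPM in Nanog-positive cells, against 43.0 and 26.6 CPM in Nanog-zero cells, with no call (0.39 ± 0.29). Cdkn1c (-0.69 ± 0.34), Impact (-0.16 ± 0.13) and Mest (0.11 ± 0.23) gave no call either. Median UMIs per cell were 12369 and 12478.5 in positive cells and 12909.5 and 9793 in Nanog-zero cells.

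In FBS day 12, with 22 and 18 positive cells, 6 of the 10 were called (background 30.7%). Peg3 was at 96.2 and 62.8 CPM in Nanog-positive cells, against 7.13 and 12.2 CPM in Nanog-zero cells (3.01 ± 0.45, edgeR adjusted p = 9.26e-08). The value was 2.34 when FBS day 12 A was left out and 3.73 for FBS day 12 B. Grb10 was at 249 and 314 CPM in Nanog-positive cells, against 948 and 763 CPM in Nanog-zero cells (-1.60 ± 0.13, edgeR adjusted p = 1.05e-16). Cdkn1c (-2.41 ± 0.38), Plagl1 (-2.14 ± 0.33, -2.87 without FBS day 12 B), Mest (-1.75 ± 0.36) and Ndn (-1.41 ± 0.31, no call at -0.91 without FBS day 12 A) were lower in Nanog-positive cells. With positive cells taken at 2 Nanog UMIs or more, Plagl1 was at -3.60, Ndn at -2.27 and Cdkn1c at -3.74. Positive cells were deeper, with medians of 10796.5 and 12056 UMIs against 8989 and 9197 in Nanog-zero cells.

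In S2 day 6, Peg3 (1.64 ± 0.38) and Phlda2 (2.89 ± 0.90) were higher in Nanog-positive cells and Grb10 (-0.65 ± 0.10), Ndn (-0.79 ± 0.27), Impact (-0.59 ± 0.16) and Plagl1 (-0.54 ± 0.17) lower (background 13.8%). Phlda2 rested on S2 day 6 B, whose positive cells held 13 UMIs, and was at 0.69 with no call without it and 3.94 without S2 day 6 A. Calls were lost without S2 day 6 A for Peg3 (1.11), and without S2 day 6 A and without S2 day 6 B for Plagl1 (-0.64 and -0.47), Impact (-0.79 and -0.45) and Ndn (-0.46 and -1.08, and -0.76 in cells of 5000 UMIs or more). Peg10 was called higher without S2 day 6 B (1.16) and at 2 Nanog UMIs or more (0.90), where both libraries gave 0.87 ± 0.45. Grb10 held in both.

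In AS day 6, Plagl1 was at 2.45 and 10.8 CPM in Nanog-positive cells, against 68.0 and 59.7 CPM in Nanog-zero cells (-3.19 ± 0.43, edgeR adjusted p = 1.33e-08). Ndn was at 7.34 and 8.67 CPM in Nanog-positive cells, against 82.3 and 57.5 CPM in Nanog-zero cells (-3.09 ± 0.42, edgeR adjusted p = 1.51e-08). Positive cells of AS day 6 held little of either gene, with 6 Plagl1 UMIs and 7 Ndn UMIs over 22 and 28 cells. Plagl1 was at -2.51 without AS day 6 A and -4.75 without AS day 6 B. Cdkn1c (-1.37 ± 0.32), Sgce (-1.13 ± 0.42), Mest (-0.65 ± 0.25) and Impact (-0.50 ± 0.16) were lower too (6 of 10, background 26.5%), and Grb10 was at 861 and 1012 CPM in Nanog-positive cells, against 1042 and 1012 CPM in Nanog-zero cells (-0.14 ± 0.10). With positive cells taken at 2 Nanog UMIs or more, Grb10 was called lower (-0.44) and Peg3 higher (1.56, with 1.31 ± 0.52 and no call at 1 or more), and Sgce was at -2.44. Without AS day 6 A, Impact (-0.29) and Mest (-0.03) lost their calls and Sgce was at -1.94. Without AS day 6 B, Sgce (-0.62) and Cdkn1c (-1.09) lost theirs and Mest was at -1.36. In A2S day 4, with 21 and 17 positive cells, Grb10 was lower (-0.47 ± 0.11) and Peg3 higher (2.19 ± 0.61, 0.97 and no call without A2S day 4 A) in positive cells (background 11.1%).

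**Figure D4:**
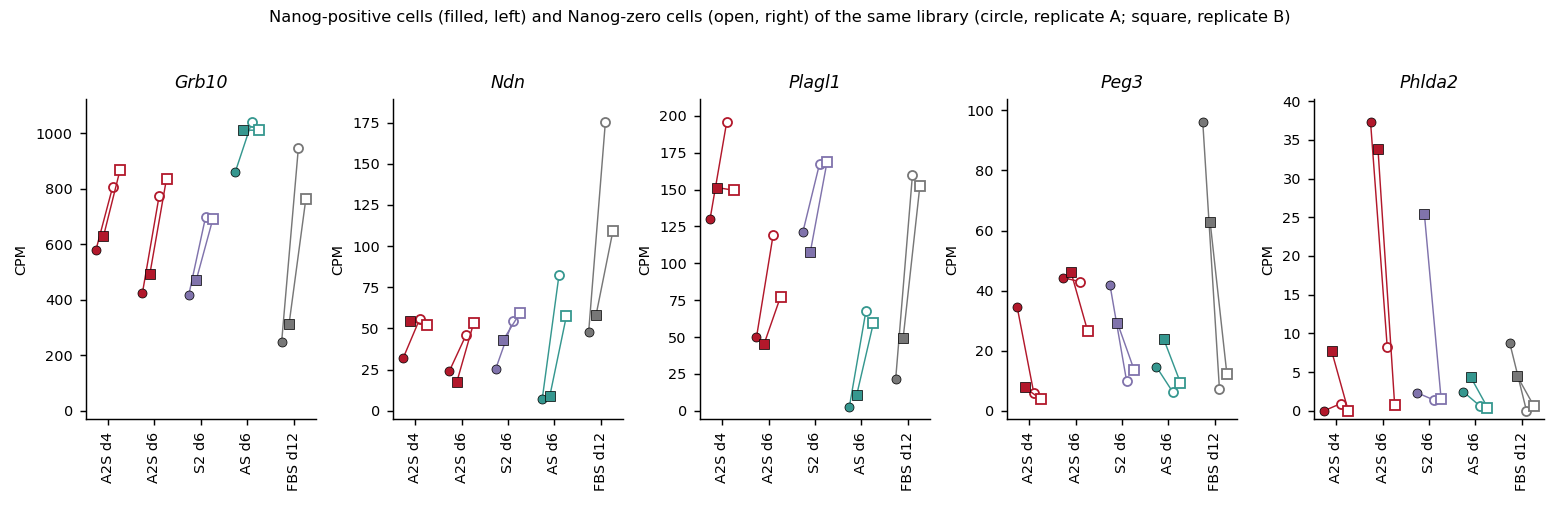
Level (CPM) of 5 genes in the Nanog-positive (filled) and Nanog-zero (open) cells of each library, for the 5 groups with at least 10 positive cells a library. Grb10 is called lower in positive cells in 4 of the 5 groups, and Phlda2 is highest in the positive cells of A2S day 6.

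Shares of cells with a UMI were counted after each cell was thinned to 1000 UMIs. Phlda2 was found in 2.14% (0.928 to 4.17) and 2.37% (0.959 to 4.83) of cells in ESCs with A2S and 18.8% (12.7 to 26.4) and 17.7% (12.2 to 24.4) in ESCs, with 95% exact binomial intervals for counting error only. The share was 2.17% and 1.97% in A2S day 6 and 0 of 298 and 0 of 431 cells in MEFs, which allows shares up to 1.01% and 0.696%. Without thinning, Phlda2 was in 9.09% and 13.9% of cells in ESCs with A2S, 81.2% and 83.5% in ESCs, and 11.3% and 8.91% in A2S day 6. Grb10 was found in 2.14% and 1.69% of thinned cells in ESCs with A2S and 33.3% and 31.7% in ESCs (20.1% and 19.7%, and 81.9% and 86.6%, without thinning). Plagl1 was found in 8.82% and 5.76% of thinned cells in ESCs with A2S and 1.45% and 1.22% in ESCs (48.4% and 48.8%, and 7.97% and 6.10%, without thinning). Plagl1 UMIs in ESCs with A2S came from many cells rather than a few. Peg10 was found in 14.2% and 16.4% of thinned cells in A2S day 4 and 13.5% and 11.8% in A2S day 6, and in 0% to 2.78% over the FBS libraries. A thinned cell held a UMI of 0.417 and 0.325 of the 10 genes on average in ESCs with A2S and of 1.15 and 1.13 in ESCs, with 0.799 to 1.32 in the other libraries.

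Other imprinted genes were counted beside the 10, from a list of 63 of which 49 were tested. In ESCs with A2S over ESCs 12 were higher and 12 lower (background 46.6%), with a median log2 fold change of 0.01 beside -1.02 over the 10 genes and 0.04 over all genes tested. In A2S day 6 over FBS day 6, 6 were higher and 22 lower (background 52.5%), with a median of -0.53, beside -0.69 over the 10 and 0.01 over all. At day 6, A2S had 4 higher and 17 lower against A2 (median -0.25, background 30.4%), 6 and 12 against S2 (median -0.01, background 16.1%) and 5 and 12 against AS (median -0.24, background 38.5%). Dio3, a deiodinase gene of the Dlk1-Dio3 locus, was at 24.7 ± 0.219 CPM in ESCs with A2S and 0.784 ± 0.0726 CPM in ESCs. Qpct, which encodes a glutaminyl cyclase, was at 42.8 ± 2.81 CPM in ESCs with A2S and 1.70 ± 1.22 CPM in ESCs. Among the lower genes, the proteolipid gene Nnat was at 0.823 ± 0.00562 CPM in ESCs with A2S and 45.8 ± 6.17 CPM in ESCs, and the flippase gene Atp10a at 2.05 ± 0.956 CPM in ESCs with A2S and 25.5 ± 2.34 CPM in ESCs (SD, n = 2 each). The 4 differed with an edgeR adjusted p of 3.97e-08 or less. In reprogramming, Jade1 was at 73.8 ± 9.85 CPM in A2S day 6 and 41.7 ± 3.00 CPM in FBS day 6 (log2 fold change 0.82), and Dlk1 at 6.78 ± 1.77 CPM in A2S day 6 and 117 ± 42.2 CPM in FBS day 6 (-4.13).

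Genes that keep or remove imprints, such as DNA methyltransferases and Tet dioxygenases, were counted next. Of 20, 19 were higher and 1 lower in ESCs than in MEFs (background 71.6%), with a median log2 fold change of 1.90 beside 0.02 over all genes tested. In A2S day 6 over FBS day 6, 15 were higher and 3 lower (median 0.65, background 52.5%). At day 6 A2S had 7 higher and 1 lower against A2 (background 30.4%), 6 and 1 against S2 (16.1%) and 8 and 3 against AS (38.5%). Dppa3, which shields imprints from demethylation in the zygote, was at 63.7 ± 0.709 CPM in A2S day 6 and 0 ± 0 CPM in FBS day 6, where it had no UMI. Tet1 was at 52.7 ± 6.79 CPM in A2S day 6 and 2.05 ± 1.04 CPM in FBS day 6 (log2 fold change 4.55, edgeR adjusted p = 1.02e-11), and Tet3 was lower with A2S (-0.81, edgeR adjusted p = 0.000255). In ESCs with A2S over ESCs, 5 were higher and 6 lower (median 0.02, background 46.6%). The de novo methyltransferase gene Dnmt3a was at 10.1 ± 1.09 CPM in ESCs with A2S and 155 ± 1.62 CPM in ESCs (log2 fold change -3.92, edgeR adjusted p = 3.87e-21) and Dnmt3b at 280.3 ± 10.4 CPM in ESCs with A2S and 654 ± 13.1 CPM in ESCs (-1.22, edgeR adjusted p = 5.71e-07). Uhrf1, which brings the maintenance methyltransferase to replicated DNA, was at 515 ± 24 CPM in ESCs with A2S and 279.5 ± 12.9 CPM in ESCs (0.88, edgeR adjusted p = 1.4e-08). Genes of the pathways the 10 act in (insulin and IGF signalling, cyclins and cyclin-dependent kinase inhibitors, sarcoglycans, Phlda relatives and the Gcn2 kinase) gave 6 higher and 15 lower of 27 tested in A2S day 6 over FBS day 6 (median -0.43, background 52.5%). In ESCs with A2S over ESCs, 5 were higher and 10 lower (median -0.04, background 46.6%). Cdkn1a (p21), a relative of Cdkn1c, was at 171 ± 0.00402 CPM in ESCs with A2S and 45.7 ± 3.95 CPM in ESCs (1.91, edgeR adjusted p = 3.88e-16), and Grb7, a relative of Grb10, at 2.88 ± 0.214 CPM in ESCs with A2S and 83.3 ± 6.88 CPM in ESCs (-4.83, edgeR adjusted p = 1.01e-13). Grb7 was at 22.6 ± 1.05 CPM in A2S day 6 and 0 ± 0 CPM in FBS day 6, where it had no UMI. Igf1r, the receptor that Grb10 inhibits, was at 32.9 ± 6.16 CPM in A2S day 6 and 218 ± 11.9 CPM in FBS day 6 (-2.72, edgeR adjusted p = 3.8e-20).

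Genes with a pattern most like each of the 10 were found by the Pearson correlation of log2(CPM + 1) over the 16 group means, among 9862 tested genes that reached 20 CPM in a group. These are descriptions over groups that share starting cells, feeders and a range of depths. Ndn was closest to Celf2 (r = 0.968), the secreted protease gene Prss23 (0.963) and Nrp1 (0.962). Grb10 was closest to Smo, the Hedgehog signal transducer (0.970), Decr1 (0.965) and Smco4 (0.963). Phlda2 was closest to Rasd2 (0.975) and to the neural transcription factor genes Olig1 (0.944) and Olig2 (0.943), which like Phlda2 were near 0 in most groups. Plagl1 was closest to Scap, the sterol sensor (0.956), Adgrg6 (0.936) and Hacd3 (0.911). Sgce was closest to Rdh14 (0.946), Tmed3 (0.940) and Fkbp7 (0.939), and Cdkn1c to Zer1 (0.929), Vsig10 (0.910) and Crebrf (0.891). The nearest genes reached lower values for Impact (Acsl4, 0.892, Mettl9, 0.890, and Foxp1, 0.876), Peg10 (Odf2l, 0.864, Tom1l1, 0.853, and Acss2, 0.848), Mest (Fos, 0.849, Tfdp2, 0.788, and Crnkl1, 0.783) and Peg3 (Pld3, 0.823, Tcn2, 0.817, and Ror2, 0.804). Spearman's rho with these neighbours was 0.482 to 0.788 for Grb10, 0.563 to 0.679 for Phlda2 and 0.503 to 0.779 for Impact, and 0.75 to 0.965 for the other 7 genes. By rank, 7 of the 30 named neighbours stayed among the 3 nearest. Among the 45 pairs of the 10 genes themselves, Pearson's r ran from -0.81 (Phlda2 and Plagl1) to 0.79 (Grb10 and Impact), where Spearman's rho was 0.17. The neighbours Peg10 and Sgce gave -0.16 and the neighbours Cdkn1c and Phlda2 -0.02.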

How the data were processed

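The deposited tables give UMI counts in whole numbers for every cell and gene, made by the authors from ddSEQ droplet libraries of transcript 3' ends (SureCell kit), per the labels. The submitters' processing notes name bcl2fastq 2.19, STAR and mm10. Neither annotation nor counting program is given in the sources used here. Of 8334 barcodes, 684 that the authors listed as feeder MEFs for their own group were left out and 7650 kept. The list named 5 further barcodes for another group, which were kept, and 34 barcodes occurred in more than 1 library. Doublets were not removed. The 2 libraries of a group always differed beyond sampling noise (chi-square per degree of freedom 1.64 to 8.62), and each entered as its own sample.

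Counts were summed per library and tested in 1 fit of all 32 libraries with edgeR 4.0.16 (quasi-likelihood, robust, TMM factors, filterByExpr) in R 4.3.3 with limma 3.58.1. Benjamini-Hochberg adjustment ran over the 13229 tested genes of a comparison, with a call at an adjusted p under 0.05. The SE of a log2 fold change is its size divided by the square root of F. The test was run on simulated data for A2S day 6 against AS day 6 only. Those counts were drawn from the fit's own means and dispersion, so they cannot check its model. Nanog-positive and Nanog-zero sums were fitted with the library as a block, over 11578 genes, in groups with at least 10 positive cells in each library. A fold against a group without UMIs is set against 3 UMIs over the group. Tests of 2 against 2 libraries with permutations allow no small p, so shares of cells have none. All 10 genes were tested in every comparison, and some without a call are not named in the text. For each of the 10 the 3 most alike genes are named. From each gene list up to 2 called genes in each direction could be named. They were those of largest change that reached 20 CPM in the higher group. Some of these are named. The 10 genes and the lists were chosen with earlier results of these data known.

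Same-lettered libraries did not deviate together in general (correlation of deviations -0.28 to 0.19 over 120 pairs of groups, median 0.00205, above 0.1 in 6). The letters were therefore not taken as pairs in the reported fit. A link between libraries of single groups cannot be judged from these values. The alternatives were DESeq2 1.42.0, RLE factors, a fit with no count filter, replicate letters as a block, keeping the listed cells, taking cells of 2000 UMIs or more (5000 or more, or 2 Nanog UMIs or more, for the Nanog sums), a fit of the compared groups alone, each library left out in turn, and other thinning for shares. Leaving out libraries and fitting the compared groups alone were not applied to the interaction contrasts. Further tools were Python 3.11.15, numpy 2.4.6, pandas 2.3.3, scipy 1.17.1 and matplotlib 3.10.9. Library depth limits genes of few UMIs, above all Phlda2.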

Additional observations from a re-analysis of the deposited data

Results flagged for a closer look

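The change of Plagl1 between days 4 and 6 differed between A2S and A2 by -1.41 on the log2 scale, and between A2S and AS by -0.97, in edgeR's interaction test. Plagl1 was at 80.1 and 55.9 CPM at day 6 with A2S, against 183 and 143 CPM at day 4. In A2 it was at 237 and 248 CPM at day 6, against 206 and 240.5 CPM at day 4, and in AS at 58.4 and 49.3 CPM at day 6, against 73.2 and 63.1 CPM at day 4. The change of Phlda2 differed between A2S and AS by 4.61, with 120 UMIs in A2S day 6 and single-digit counts in each AS library. None of the differences in this section was refitted with a library left out.

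The effect of A2S in ESCs (day 2) minus its effect in reprogramming cells (day 6 with doxycycline) was tested after the values were seen. It was 5.53 for Plagl1, -6.38 for Peg10, -2.96 for Grb10, 1.93 for Ndn and -0.82 for Impact. For Phlda2 the fitted value was -13.04, which depends on the prior count because FBS day 6 had no UMI, and is no bound. With the listed cells kept it was -10.91, where 1 Phlda2 UMI in the listed cells enters FBS day 6. Day and doxycycline differ together with the cell type, and their parts cannot be told apart.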

How the results depend on the processing

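Of 134 calls of the 10 genes, 99 were kept under every alternative run and 35 were lost under at least 1. The flagged differences between changes or effects are among the 134. They were not refitted with a library left out or with the compared groups alone, so fewer alternatives could end those calls. Of the results without a call, 38 gained one under some alternative, most often when the compared groups were fitted alone. That fit called 79.7% of all genes it tested in ESCs against MEFs, where the reported fit called 71.6%. In ESCs with A2S over ESCs it called 60.7% against 46.6%, and in FBS day 3 against MEFs 50.6% against 40.6%. Among results called in the reported or the alternative fit, a direction was reversed once, for Peg10 in Nanog-positive against Nanog-zero cells of AS day 6. The value was -1.31 with positive cells taken at 2 Nanog UMIs or more and 0.01 in the reported fit. The cause was not tested.

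The number of the 10 genes called moved past 1.5 times in few comparisons. For FBS day 9 against day 6 it was 2 with no count filter (background 6.05%) and 2 in a fit of the groups alone. As reported it was 1 (background 9.53%). For FBS day 12 against day 9 it was 2 in a fit of the groups alone, against 0 as reported (background 12.4%). For A2S day 4 against day 2 it was 5 with the listed cells kept (background 34.8%) and 5 in a fit of the groups alone. As reported it was 3 (background 29.5%). None of these backgrounds is that of a fit of the groups alone. That fit called more of all genes where its shares are given above (79.7% against 71.6% in ESCs against MEFs). Its counts can therefore not be set against these backgrounds. Leaving out a library lowered the number in some cases for A2S day 4 against S2 day 4. The same held for Nanog-positive against Nanog-zero cells of A2S day 4, A2S day 6 and S2 day 6, where 1 pair of sums is left. Fewer of all genes tested were called in these Nanog fits as well.

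The replicate block, which takes libraries of the same letter as pairs, changed 2 counts. For A2S day 4 against A2 day 4 it gave 3 (background 14%) in place of 2 (14.4%), with Plagl1 called at -0.43. For A2S day 6 against AS day 6 it gave 6 (background 38.2%) in place of 7 (38.5%), with Mest at -1.20. It changed the count in no other comparison. With 2 libraries a group and Phlda2 at 0 to 9 UMIs in most groups, small differences of rare genes could not be detected at this depth.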
